A study of Mus musculus with 12 samples.

Results

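The 42 genes described here encode the lysosome's membrane proteins, hydrolases and proton pump, the core proteins of autophagy, and the transcription factors Tfeb and Tfe3. They were listed by symbol, with earlier results of these data known and with no measured value in the rule, and all 42 were found once among the 56691 genes of each deposited table. Messenger RNA was sequenced from cultured EMT6 and 4T1 cells, both mouse mammary carcinoma lines, with 3 libraries per group and 12 in all. The groups were EMT6 KO and EMT6 control, and 4T1 KO and 4T1 control. The KO cells carry the label sgNEDD4, as a single guide RNA to that gene is commonly written, and the controls are labelled wild type. All 4 groups grew in DMEM with serum and carry the same batch label. The labels do not say whether a KO line is 1 clone, where the guide cuts, or whether replicate libraries are separate cultures. P-values therefore measure only the spread between these libraries, which may be technical.

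Lysosomes are acidic vesicles in which hydrolases break down protein, lipid and sugar chains delivered by endocytosis and by autophagy. The vacuolar ATPase, built of a cytosolic V1 sector and a membrane V0 sector, pumps in the protons. In autophagy, the Ulk1 kinase and the Becn1 lipid kinase complex start a membrane around cargo, Atg7 and Atg5 help to attach Atg8-family proteins to it, and the receptor Sqstm1 (p62) links ubiquitinated cargo to those proteins. Tfeb and Tfe3 bind E-box motifs near many of these genes. NEDD4 is a HECT-type ubiquitin ligase known for marking membrane proteins for transport to the lysosome.

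Total counts ran from 13705612 to 19761604 per library, so that 3 counts equal 0.152 to 0.219 CPM, which are counts scaled to a common library size. Nedd4 stood at 11.5 to 12.1 FPKM in EMT6 KO libraries, against 116.5 to 122.5 FPKM in EMT6 controls, and at 24.7 to 25.3 FPKM in 4T1 KO libraries, against 93.5 to 97.6 FPKM in 4T1 controls. FPKM are counts scaled by exonic gene length and by library size. More genes had a count in 4T1 KO libraries (20937 to 21264) than in 4T1 controls (18836 to 19017), and the nuclear RNA Malat1 stood at 478.6 to 560.2 CPM in 4T1 KO libraries, against 69.3 to 155.0 CPM in controls. In EMT6, Malat1 stood at 157.9 to 200.2 CPM in KO libraries and at 188.7 to 449.6 CPM in controls. Neat1, another nuclear RNA, stood at 28.2 to 36.1 CPM in EMT6 KO libraries against 66.8 to 138.4 CPM in EMT6 controls, and at 240.5 to 333.2 CPM in 4T1 KO libraries against 51.6 to 84.6 CPM in 4T1 controls. It was called lower in EMT6 KO cells (log2 change -1.63 ± 0.32, edgeR adjusted p = 0.0112) and higher in 4T1 KO cells (2.09 ± 0.24, edgeR adjusted p = 0.00195). The 6 epithelial markers summed to 378.9 to 392.6 FPKM in EMT6 KO libraries and 350.5 to 416.4 FPKM in EMT6 controls, in both of which Cdh1 was under 0.1 FPKM in every library. Krt8 made up most of the EMT6 sum and was higher in KO libraries (343.4 to 360.6 against 272.8 to 330.8 FPKM). Krt18 was lower there (30.8 to 33.6 against 72.7 to 81.0 FPKM), as were Epcam and Krt7. The 6 summed to 1409 to 1487 FPKM in 4T1 KO libraries, against 1929 to 2004 FPKM in 4T1 controls, with none under 0.1 FPKM. Epcam, Krt8 and Krt18 were lower in 4T1 KO libraries, and Cdh1 was higher (140.0 to 146.9 against 134.7 to 138.2 FPKM). FPKM are scaled by total counts only, and divided by the factors of the main scaling, given below, these Cdh1 groups overlap. The 5 fibroblast markers summed to 203.5 to 236.1 FPKM in EMT6 KO libraries, against 158.0 to 179.4 FPKM in EMT6 controls, and Dcn and Lum among them were under 0.1 FPKM in every EMT6 library. Col1a1 made up most of that sum and was higher in KO libraries, as was Pdgfrb (9.62 to 9.94 against 0.68 to 1.17 FPKM), while Pdgfra overlapped. In 4T1 the fibroblast sum was 5.23 to 5.45 FPKM in KO libraries and 4.88 to 5.82 FPKM in controls. The 4 mesenchymal markers summed to 1185 to 1262 FPKM in EMT6 KO libraries, against 796.4 to 850.5 FPKM in EMT6 controls, with Cdh2 under 0.1 FPKM in every EMT6 library. Vim and Fn1 made up most of that sum and were higher in KO libraries, while Zeb1 was lower (2.56 to 2.75 against 2.8 to 3.28 FPKM). In 4T1 the 4 markers summed to 951.4 to 958.8 FPKM in KO libraries and 891.8 to 978.1 FPKM in controls, with Zeb1 and Cdh2 under 0.1 FPKM. In that 4T1 sum, Vim was higher in KO libraries (555.7 to 587.3 against 480.4 to 524.4 FPKM) and Fn1 lower (364.1 to 402.5 against 411.4 to 494.1 FPKM). The part of these differences in the results was not tested.

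All 42 genes passed the filter on low counts in both lines. Their median was 1206 counts per library in EMT6, beside 549.7 for all genes tested there, and 1010 beside 457.7 in 4T1. Shares of called genes below are not matched for counts, and at more counts a small change is more readily called. In EMT6, 17 genes were called higher in KO cells and 10 lower, and 15 were not called. These 27 calls are 64.3% of the genes, beside 56.0% of all 12890 genes tested in that line, of which 27.9% were called higher and 28.2% lower. In 4T1, 21 were called higher, 12 lower and 9 not called, which is 78.6% of the genes beside 57.0% of all 13313 tested (28.0% higher and 29.0% lower). The same shares of all tested genes stand beside the counts by role given below. In FPKM, the groups were fully apart for 31 of the 42 genes in EMT6, beside 62.3% of all tested genes, and for 30 in 4T1, beside 61.6%. A call means that edgeR's quasi-likelihood test gave an adjusted p under 0.05 (Benjamini-Hochberg, over all tested genes). Most changes were small, since 21 of 27 calls in EMT6 and 24 of 33 in 4T1 were under 0.5 in size on the log2 scale. The median log2 change of the 42 genes was 0.02 in EMT6 and 0.14 in 4T1, where the median of all tested genes was 0.00 in each line. With libraries scaled by total counts only, the 4T1 split became 23 higher and 7 lower, and 61.2% of all called genes were then higher, against 49.1% with the main scaling. Summed over the 42 genes, levels were 5156 to 5270 CPM in EMT6 KO libraries and 4979 to 5325 CPM in EMT6 controls, which overlap. The sum was 4274 to 4535 CPM in 4T1 KO libraries and 3990 to 4191 CPM in 4T1 controls, which do not. These CPM are scaled by total counts only. The main scaling also divides by a factor of 1.019 to 1.038 in 4T1 KO libraries and 0.9557 to 0.9821 in 4T1 controls. Dividing the sums by these factors too makes the 4T1 groups overlap. Their separation is therefore found under total-count scaling only. In RNA from whole cultures, a change in the share of cells that express a gene cannot be told apart from a change per cell.

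**Figure D1:**
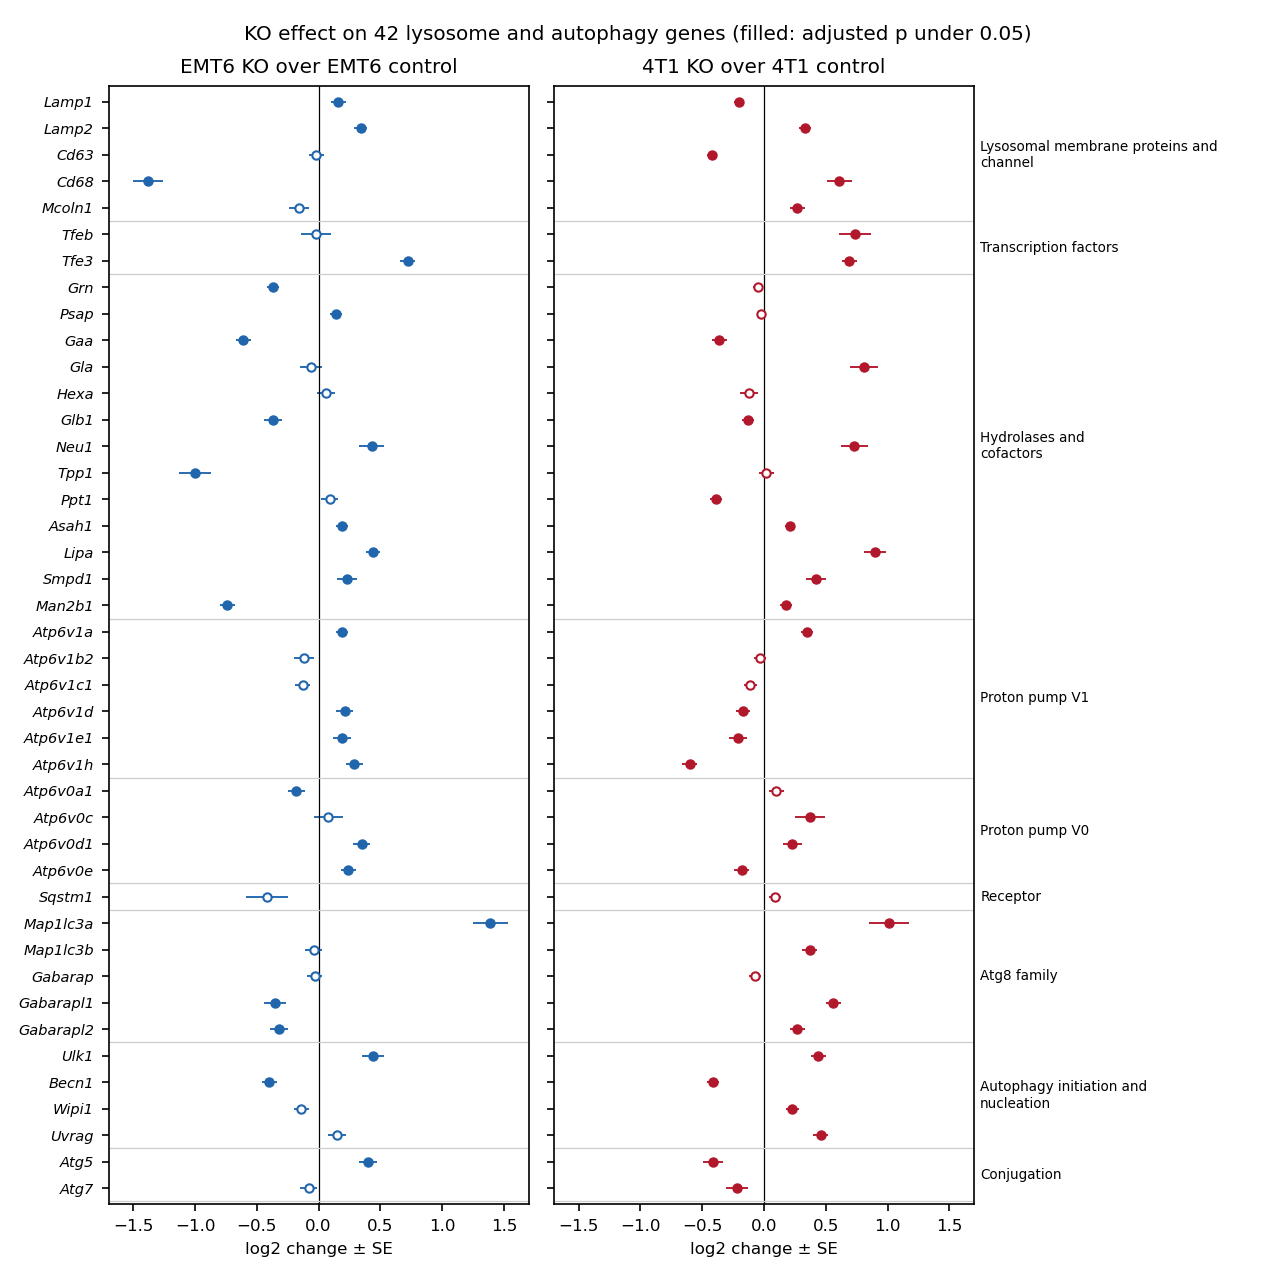
Log2 change of each of the 42 genes, KO over control, in EMT6 (left) and 4T1 (right), grouped by role, with standard errors from edgeR as bars. Filled points are genes called at an adjusted p under 0.05. The changes run from -1.38 (Cd68) to 1.39 (Map1lc3a) in EMT6, and from -0.60 (Atp6v1h) to 1.01 (Map1lc3a) in 4T1.

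Setting both lines side by side, 10 genes rose in both (23.8% of the 42, beside 7.05% of 12006 genes tested in both lines), 3 fell in both (7.14%, beside 7.85%) and 10 moved in opposite directions (23.8%, beside 19.6%). Lamp2, Tfe3, Neu1, Asah1, Lipa, Smpd1, Atp6v1a, Atp6v0d1, Map1lc3a and Ulk1 rose in both lines. Gaa, Glb1 and Becn1 fell in both. The genes that moved in opposite directions were Lamp1, Cd68, Man2b1, Atp6v1d, Atp6v1e1, Atp6v1h, Atp6v0e, Gabarapl1, Gabarapl2 and Atg5. Under the alternative settings, 8 of the 10 that rose, 2 of the 3 that fell and 6 of the 10 opposite genes kept both calls in every setting run.

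Of the transcription factors, Tfe3 rose in both lines and Tfeb rose in 4T1. Tfe3 (ENSMUSG00000000134) had 16.0, 16.2 and 15.2 FPKM in EMT6 KO libraries, against 9.8, 9.29 and 9.75 FPKM in EMT6 controls. In 4T1 it had 8.74, 8.46 and 8.08 FPKM in KO libraries, against 4.89, 5.09 and 4.85 FPKM in controls. Every KO library lay above every control library of its line. The log2 change of Tfe3 was 0.72 ± 0.06 in EMT6 (SE, edgeR adjusted p = 1.68e-08) and 0.69 ± 0.06 in 4T1 (edgeR adjusted p = 4.65e-10). The difference between these changes was 0.04 ± 0.08 (edgeR adjusted p = 0.727). Tfeb (ENSMUSG00000023990) stood at 2.1, 2.22 and 2.39 FPKM in EMT6 KO libraries, against 1.96, 2.4 and 2.42 FPKM in EMT6 controls, and the groups overlap. In 4T1, Tfeb had 2.43, 2.14 and 2.38 FPKM in KO libraries, against 1.52, 1.13 and 1.29 FPKM in controls, which do not overlap. Its log2 change was -0.02 ± 0.12 in EMT6 (edgeR adjusted p = 0.887) and 0.74 ± 0.13 in 4T1 (edgeR adjusted p = 2.2e-05), and the changes differed by -0.76 ± 0.18 (edgeR adjusted p = 0.000599).

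The E-box CACGTG, which is its own reverse complement, was looked up in the promoter windows of RefSeq (GRCm38.p6, 250 bases before to 50 after a gene's start), where 36 of the 42 genes had an entry. It was found for 10 of the 36 (27.8%), beside 8.09% of 27025 genes. Those 10 were Lamp1, Mcoln1, Gaa, Gla, Glb1, Atp6v1a, Atp6v0d1, Atp6v0e, Atg5 and Atg7, of which 5 were called higher and 2 lower in EMT6, and 4 higher and 6 lower in 4T1. For all tested genes these shares were 27.9% higher and 28.2% lower in EMT6, and 28.0% and 29.0% in 4T1. The longer forms, which contain the E-box and were searched on both strands, are closer to the sites known for Tfeb and Tfe3. GTCACGTG was found for 6 of the 36 (16.7%), beside 2.55% of all genes, and TCACGTGA for 5 (13.9%), beside 1.12%. Windows are shown for the 4 genes with a longer form and the lowest adjusted p for KO in either line, from 5′ to 3′ on the gene's strand, with matches to the 3 motifs in capitals. They lie at chrX:134600956-134601255 (minus strand, Gla), chr16:44139210-44139509 (minus strand, Atp6v1a), chr9:114400828-114401127 (plus strand, Glb1) and chr8:13158911-13159210 (plus strand, Lamp1).
Gla: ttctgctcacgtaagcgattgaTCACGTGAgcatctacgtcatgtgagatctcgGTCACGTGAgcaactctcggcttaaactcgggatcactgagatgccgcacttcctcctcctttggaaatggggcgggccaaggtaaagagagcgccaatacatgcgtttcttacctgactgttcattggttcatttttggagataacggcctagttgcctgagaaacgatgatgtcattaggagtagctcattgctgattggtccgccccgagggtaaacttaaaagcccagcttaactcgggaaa
Atp6v1a: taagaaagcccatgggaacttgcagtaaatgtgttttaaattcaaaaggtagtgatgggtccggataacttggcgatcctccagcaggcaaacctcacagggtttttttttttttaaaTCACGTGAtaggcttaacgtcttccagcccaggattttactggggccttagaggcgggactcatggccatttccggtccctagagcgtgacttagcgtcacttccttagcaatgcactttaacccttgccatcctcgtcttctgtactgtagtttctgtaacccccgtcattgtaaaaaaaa
Glb1: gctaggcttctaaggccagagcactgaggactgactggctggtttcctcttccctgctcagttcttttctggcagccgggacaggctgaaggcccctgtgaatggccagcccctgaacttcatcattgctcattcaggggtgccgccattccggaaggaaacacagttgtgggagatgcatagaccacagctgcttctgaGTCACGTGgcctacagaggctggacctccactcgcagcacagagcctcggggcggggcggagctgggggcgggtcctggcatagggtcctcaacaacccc
Lamp1: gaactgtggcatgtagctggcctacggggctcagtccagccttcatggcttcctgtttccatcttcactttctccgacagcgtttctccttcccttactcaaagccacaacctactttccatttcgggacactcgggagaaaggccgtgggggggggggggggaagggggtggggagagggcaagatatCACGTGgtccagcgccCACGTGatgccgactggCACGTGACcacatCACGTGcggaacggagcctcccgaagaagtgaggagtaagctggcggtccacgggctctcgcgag
Lamp1 held 4 E-boxes, Gla 2, and Atp6v1a and Glb1 1 each. The 4 genes did not move alike: Atp6v1a rose in both lines, Glb1 fell in both, Gla rose in 4T1 and was not called in EMT6, and Lamp1 rose in EMT6 and fell in 4T1.

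**Figure D2:**
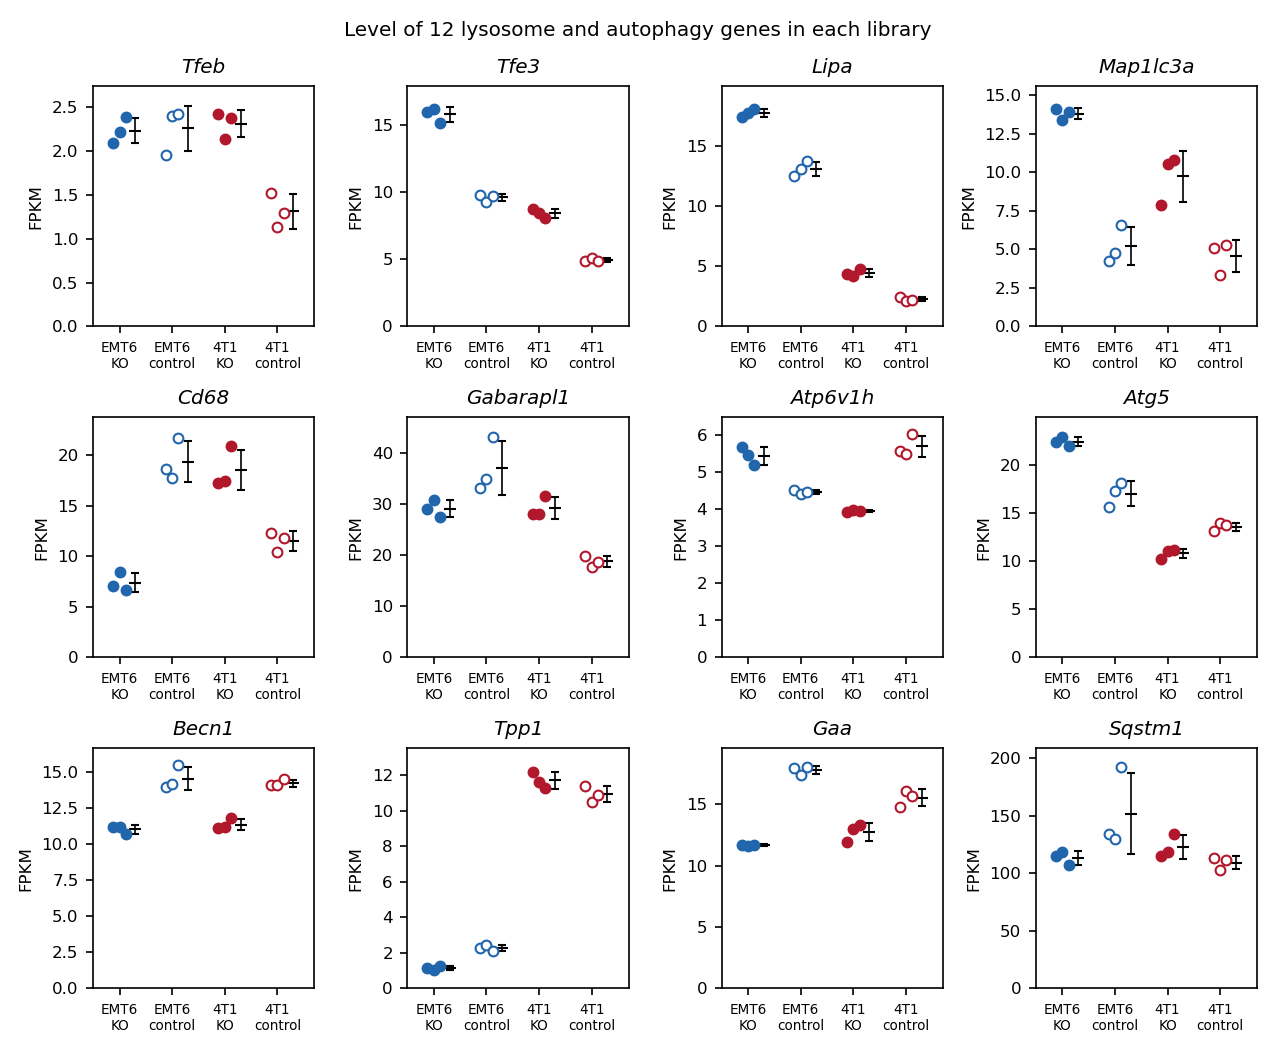
FPKM of 12 of the genes in each library, with the 4 groups side by side. Points are libraries and bars show mean ± SD over 3 libraries. Tfe3, Lipa and Map1lc3a are higher in KO libraries of both lines, Becn1 and Gaa are lower, and Cd68, Gabarapl1, Atp6v1h and Atg5 move in opposite directions.

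Of the 5 lysosomal membrane proteins, 2 rose and 1 fell in EMT6, and 3 rose and 2 fell in 4T1. Cd68, a heavily glycosylated lysosomal protein best known from macrophages, had 7.05, 8.45 and 6.67 FPKM in EMT6 KO libraries, against 18.7, 17.8 and 21.7 FPKM in EMT6 controls. In 4T1 its levels were 17.3, 17.5 and 20.9 FPKM in KO libraries, against 12.3, 10.4 and 11.8 FPKM in controls. Cd68 was thus low in every EMT6 KO library and high in every 4T1 KO library, with no overlap in either line. It fell by 1.38 ± 0.12 in EMT6 (log2, SE, edgeR adjusted p = 4.17e-08) and rose by 0.61 ± 0.10 in 4T1 (edgeR adjusted p = 1.06e-05). The difference, -1.99 ± 0.16 (edgeR adjusted p = 1.83e-11), was the largest between the lines among the 42 genes. The 11 leukocyte markers other than Cd68 summed to 9.69 to 10.6 FPKM in EMT6 KO libraries against 10.8 to 12.7 FPKM in EMT6 controls, and to 9.48 to 10.1 FPKM in 4T1 KO libraries against 14.7 to 15.7 FPKM in 4T1 controls. Cd14 made up most of these sums and was lower in KO libraries of both lines. Csf1r was higher in EMT6 KO libraries (0.94 to 1.1 against 0.4 to 0.58 FPKM). Aif1 (0.07 to 0.16 against 0.0 FPKM) and Cd79a (0.19 to 0.25 against 0.05 to 0.09 FPKM) were higher in 4T1 KO libraries. Of the 11, 7 were under 0.1 FPKM in every EMT6 KO library and 9 in every EMT6 control. In 4T1, 4 were under it in every KO library and 5 in every control. The pan-leukocyte marker Ptprc, the myeloid marker Itgam and the T cell marker Cd3e were under 0.1 FPKM in every library. The part of the leukocyte markers in the change of Cd68 was not tested.

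Lamp1 and Lamp2 are the main glycoproteins that line the lysosomal membrane. Lamp2 had 34.2, 33.3 and 33.9 FPKM in EMT6 KO libraries, against 26.3, 26.8 and 27.1 FPKM in EMT6 controls. Levels in 4T1 were 25.4, 24.6 and 26.4 FPKM in KO libraries, against 20.01, 18.9 and 18.5 FPKM in controls. Neither pair of groups overlaps, and Lamp2 rose by 0.34 ± 0.05 in EMT6 (edgeR adjusted p = 3.23e-05) and by 0.33 ± 0.05 in 4T1 (edgeR adjusted p = 1.17e-06). Lamp1 had 178.6, 176.5 and 169.4 FPKM in EMT6 KO libraries, against 150.9, 165.9 and 153.3 FPKM in EMT6 controls. Lamp1 in 4T1 had 204.1, 206.6 and 215.2 FPKM in KO libraries, against 233.8, 223.3 and 224.2 FPKM in controls. Groups stay apart in both lines, in opposite directions. Lamp1 rose by 0.16 ± 0.06 in EMT6 (edgeR adjusted p = 0.0266), a call lost without KO replicate 1 or 2 or control replicate 1 or 3 (edgeR adjusted p 0.0503 to 0.124). It fell by 0.20 ± 0.04 in 4T1 (edgeR adjusted p = 0.00019).

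Cd63, a tetraspanin of late endosomes, stood at -0.02 ± 0.06 in EMT6 (edgeR adjusted p = 0.78) and fell by 0.42 ± 0.04 in 4T1 (edgeR adjusted p = 1.64e-08). Its pseudogene Cd63-ps, with a mean of 526.7 counts in EMT6 and 388.2 in 4T1, may share reads with it. Mcoln1, the lysosomal calcium channel, stood at -0.16 ± 0.08 in EMT6 (edgeR adjusted p = 0.112) and rose by 0.27 ± 0.06 in 4T1 (edgeR adjusted p = 0.00062).

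Among the 13 hydrolases and their cofactors, 5 rose and 5 fell in EMT6, and 6 rose and 3 fell in 4T1. Lipa, the acid lipase that frees cholesterol and fatty acids, had 17.4, 17.7 and 18.0 FPKM in EMT6 KO libraries, against 12.5, 13.0 and 13.7 FPKM in EMT6 controls. In 4T1, Lipa had 4.35, 4.18 and 4.78 FPKM in KO libraries, against 2.42, 2.13 and 2.18 FPKM in controls. KO libraries were higher throughout, by 0.44 ± 0.06 in EMT6 (log2, edgeR adjusted p = 7.53e-06) and by 0.90 ± 0.09 in 4T1 (edgeR adjusted p = 5.12e-09). Neu1, a sialidase, had 4.25, 4.18 and 3.96 FPKM in EMT6 KO libraries, against 3.18, 2.92 and 3.14 FPKM in EMT6 controls. Its 4T1 levels were 6.16, 7.46 and 8.41 FPKM in KO libraries, against 4.93, 3.65 and 3.95 FPKM in controls. The groups do not overlap in either line, and Neu1 rose by 0.43 ± 0.10 in EMT6 (edgeR adjusted p = 0.00205) and by 0.73 ± 0.11 in 4T1 (edgeR adjusted p = 1.36e-05).

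Sphingolipid enzymes rose in both lines by less. Asah1, the acid ceramidase, had 48.1, 50.2 and 48.7 FPKM in EMT6 KO libraries against 42.6, 42.9 and 43.3 FPKM in EMT6 controls, and 71.6, 71.7 and 75.1 FPKM in 4T1 KO libraries against 61.2, 56.1 and 61.9 FPKM in 4T1 controls. It rose by 0.19 ± 0.05 in EMT6 (edgeR adjusted p = 0.00482) and by 0.21 ± 0.04 in 4T1 (edgeR adjusted p = 0.000343), with no overlap of groups. Smpd1, the acid sphingomyelinase, had 13.2, 11.2 and 12.3 FPKM in EMT6 KO libraries against 9.87, 11.1 and 10.3 FPKM in EMT6 controls, and 9.4, 9.54 and 10.3 FPKM in 4T1 KO libraries against 7.2, 6.54 and 6.95 FPKM in 4T1 controls. The lowest EMT6 KO library lay just above the highest control, whereas the 4T1 groups were well apart. Smpd1 rose by 0.23 ± 0.08 in EMT6 (edgeR adjusted p = 0.0227) and by 0.42 ± 0.08 in 4T1 (edgeR adjusted p = 5.31e-05). The EMT6 call was lost without KO replicate 1 or 3 or control replicate 1 (edgeR adjusted p 0.0542 to 0.141) and with DESeq2 (adjusted p = 0.0567).

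Gaa and Glb1 fell in both lines, and Man2b1 and Tpp1 fell in EMT6. Gaa, which breaks down glycogen, had 11.7, 11.6 and 11.7 FPKM in EMT6 KO libraries against 18.0, 17.4 and 18.0 FPKM in EMT6 controls, and 11.9, 13.0 and 13.3 FPKM in 4T1 KO libraries against 14.8, 16.1 and 15.7 FPKM in 4T1 controls. It was lower in every KO library, with log2 changes of -0.61 ± 0.06 in EMT6 (edgeR adjusted p = 2.41e-07) and of -0.36 ± 0.06 in 4T1 (edgeR adjusted p = 9.08e-06). Man2b1, an alpha-mannosidase, had 6.15, 5.82 and 6.44 FPKM in EMT6 KO libraries against 10.1, 10.4 and 10.2 FPKM in EMT6 controls, and 11.2, 11 and 11.5 FPKM in 4T1 KO libraries against 9.42, 8.89 and 9.85 FPKM in 4T1 controls. The groups stay apart in opposite directions, at -0.74 ± 0.06 in EMT6 (edgeR adjusted p = 6.74e-08) and 0.18 ± 0.05 in 4T1 (edgeR adjusted p = 0.00428). Tpp1, which trims tripeptides from proteins, had 1.13, 1.04 and 1.23 FPKM in EMT6 KO libraries against 2.26, 2.41 and 2.11 FPKM in EMT6 controls, and 12.2, 11.6 and 11.3 FPKM in 4T1 KO libraries against 11.4, 10.5 and 10.9 FPKM in 4T1 controls. Tpp1 fell by 1.00 ± 0.13 in EMT6 (edgeR adjusted p = 7.54e-06), had the lowest level of the 42 genes in EMT6 KO cells, and stood at 0.02 ± 0.06 in 4T1 with overlapping groups (edgeR adjusted p = 0.813). Glb1, the lysosomal beta-galactosidase, had 16.5, 18.1 and 17.5 FPKM in EMT6 KO libraries against 21.6, 22.1 and 23.7 FPKM in EMT6 controls, and 35.3, 33.2 and 34.9 FPKM in 4T1 KO libraries against 34.8, 35.4 and 36.7 FPKM in 4T1 controls. It fell by 0.37 ± 0.07 in EMT6 (edgeR adjusted p = 0.000162). In 4T1 the groups overlap, and the call at -0.13 ± 0.05 (edgeR adjusted p = 0.0308) was lost without replicate 2 or 3 of either group (edgeR adjusted p 0.0512 to 0.15), with total-count scaling and with DESeq2 (adjusted p 0.0504 to 0.427 for the pair).

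Gla, an alpha-galactosidase, had 7.4, 8.48 and 7.51 FPKM in EMT6 KO libraries against 7.81, 8.06 and 8.6 FPKM in EMT6 controls, and 4.8, 5.28 and 5.56 FPKM in 4T1 KO libraries against 3.15, 2.47 and 2.84 FPKM in 4T1 controls. EMT6 groups overlap and 4T1 groups do not. The change of Gla was -0.06 ± 0.09 in EMT6 (edgeR adjusted p = 0.556) and 0.81 ± 0.11 in 4T1 (edgeR adjusted p = 1.39e-06), a difference of -0.86 ± 0.14 (edgeR adjusted p = 8.25e-06). Ppt1, which removes fatty acids from proteins, stood at 0.09 ± 0.07 in EMT6 (edgeR adjusted p = 0.24) and fell by 0.39 ± 0.05 in 4T1 (edgeR adjusted p = 7.21e-07). Ppt1 overlaps Cap1 on the other strand, which has a mean of 9774 counts in EMT6 beside 1080 for Ppt1, and 9357 beside 1279 in 4T1. With no strand setting given, reads of the pair cannot be told apart where they overlap. Progranulin (Grn), a lysosomal cofactor whose span meets Fam171a2 on the other strand, fell by 0.37 ± 0.05 in EMT6 (edgeR adjusted p = 1.31e-05) and stood at -0.05 ± 0.04 in 4T1 (edgeR adjusted p = 0.304). Hexa, a beta-hexosaminidase subunit, was not called in EMT6 (0.06 ± 0.07, edgeR adjusted p = 0.436) or in 4T1 (-0.12 ± 0.07, edgeR adjusted p = 0.142).

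Prosaposin (Psap), the precursor of the saposins that help sphingolipid hydrolases, had 390.5, 402.1 and 409.4 FPKM in EMT6 KO libraries against 364.6, 366.9 and 363.0 FPKM in EMT6 controls. In 4T1 it had 146.8, 149.6 and 164.4 FPKM in KO libraries against 144.6, 146.5 and 149.8 FPKM in controls. EMT6 groups lie apart and 4T1 groups overlap. The log2 change was 0.14 ± 0.05 in EMT6 (edgeR adjusted p = 0.0375) and -0.02 ± 0.04 in 4T1 (edgeR adjusted p = 0.78). The EMT6 call was lost in 5 of the 6 fits that left out a library, all but the one without control replicate 2 (edgeR adjusted p 0.0548 to 0.132).

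Of 10 proton pump subunits, 6 rose and 1 fell in EMT6, and 3 rose and 4 fell in 4T1. Atp6v1h, a V1 subunit, had 5.68, 5.45 and 5.19 FPKM in EMT6 KO libraries, against 4.51, 4.4 and 4.45 FPKM in EMT6 controls. In 4T1 its levels were 3.92, 3.98 and 3.95 FPKM in KO libraries, against 5.57, 5.49 and 6.01 FPKM in controls. Both pairs of groups stay apart, with KO high in EMT6 and low in 4T1. Its span meets Rgs20 on the other strand, which had a mean of 114.7 counts in EMT6 beside 860.8 for Atp6v1h. Atp6v1h rose by 0.29 ± 0.07 in EMT6 (log2, edgeR adjusted p = 0.00148) and fell by 0.60 ± 0.06 in 4T1 (edgeR adjusted p = 8.3e-09), and the changes differed by 0.90 ± 0.09 (edgeR adjusted p = 1.86e-09). Atp6v1a, the catalytic V1 subunit, had 38.8, 40.2 and 41.2 FPKM in EMT6 KO libraries against 33.9, 34.7 and 36.8 FPKM in EMT6 controls, and 22.5, 22.02 and 24.8 FPKM in 4T1 KO libraries against 17.6, 16.4 and 17.6 FPKM in 4T1 controls. It was higher in every KO library, by 0.19 ± 0.05 in EMT6 (edgeR adjusted p = 0.00681) and 0.35 ± 0.05 in 4T1 (edgeR adjusted p = 2.34e-06).

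Atp6v0d1, a V0 subunit that joins the sectors, had 38.04, 40.1 and 39.3 FPKM in EMT6 KO libraries against 28.9, 31.9 and 31.3 FPKM in EMT6 controls, and 20.3, 18.3 and 21.0 FPKM in 4T1 KO libraries against 15.9, 13.8 and 18.4 FPKM in 4T1 controls. The 4T1 groups overlap slightly. It rose by 0.35 ± 0.07 in EMT6 (edgeR adjusted p = 0.000267) and by 0.23 ± 0.08 in 4T1 (edgeR adjusted p = 0.0214). The 4T1 call was lost without KO replicate 1 or 3, without control replicate 1 or 2 (edgeR adjusted p 0.0595 to 0.143) and with DESeq2 (adjusted p = 0.0865). Atp6v0e, a small V0 subunit, had 23.6, 23.4 and 22.8 FPKM in EMT6 KO libraries against 19.6, 20.4 and 19.3 FPKM in EMT6 controls, and 21.5, 20.02 and 20.1 FPKM in 4T1 KO libraries against 23.02, 20.02 and 23.1 FPKM in 4T1 controls. Only the 4T1 groups overlap. Atp6v0e rose by 0.24 ± 0.06 in EMT6 (edgeR adjusted p = 0.00278) and fell by 0.18 ± 0.06 in 4T1 (edgeR adjusted p = 0.00968), a call lost without control replicate 1 (edgeR adjusted p = 0.0594) and with total-count scaling (edgeR adjusted p = 0.15).

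Atp6v1d and Atp6v1e1, which form the V1 shaft and stalk, showed the same small split. Atp6v1d had 14.4, 14.7 and 13.1 FPKM in EMT6 KO libraries against 13.2, 11.99 and 11.4 FPKM in EMT6 controls, and 13.5, 13.7 and 13.0 FPKM in 4T1 KO libraries against 15.8, 13.8 and 13.1 FPKM in 4T1 controls. It overlaps in both lines, with calls at 0.21 ± 0.07 in EMT6 (edgeR adjusted p = 0.0214) and -0.17 ± 0.06 in 4T1 (edgeR adjusted p = 0.0231). Its EMT6 call was lost without KO replicate 1 or 2 or control replicate 3 (edgeR adjusted p 0.064 to 0.128), and its 4T1 call without KO replicate 3 or control replicate 1 (edgeR adjusted p 0.0775 to 0.245), with total-count scaling and with DESeq2 (adjusted p 0.0611 to 0.234 for the pair). Atp6v1e1 had 12.4, 12.5 and 12.8 FPKM in EMT6 KO libraries against 10.3, 11.5 and 11.2 FPKM in EMT6 controls, and 9.52, 9.43 and 10.5 FPKM in 4T1 KO libraries against 11.2, 9.65 and 11.4 FPKM in 4T1 controls. It was called at 0.19 ± 0.07 in EMT6 (edgeR adjusted p = 0.0265) and at -0.21 ± 0.07 in 4T1 (edgeR adjusted p = 0.0111), where the groups overlap. Leaving out any EMT6 KO library or EMT6 control replicate 1 ended the EMT6 call (edgeR adjusted p 0.0672 to 0.0964), and leaving out 4T1 KO replicate 2 or control replicate 1 ended the 4T1 call (edgeR adjusted p 0.0562 to 0.0604). DESeq2 also ended the EMT6 call (adjusted p = 0.0676), and total-count scaling the 4T1 call (edgeR adjusted p = 0.126).

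Of the remaining subunits, Atp6v0a1, a large V0 subunit, was called at -0.18 ± 0.07 in EMT6 (edgeR adjusted p = 0.0275) and stood at 0.10 ± 0.06 in 4T1 (edgeR adjusted p = 0.168). The EMT6 call was lost without KO replicate 2 or 3 or control replicate 1 (edgeR adjusted p 0.0507 to 0.137), with no filter on low counts and with DESeq2 (adjusted p 0.0597 to 0.115 for the pair). Atp6v0c, the proton-carrying ring subunit, stood at 0.08 ± 0.12 in EMT6 (edgeR adjusted p = 0.584) and was called at 0.37 ± 0.12 in 4T1 (edgeR adjusted p = 0.0123), a call lost without KO replicate 2 (edgeR adjusted p = 0.0606) and with DESeq2 (adjusted p = 0.0746). Its copy Atp6v0c-ps2, with means of 1023 counts in EMT6 and 820.2 in 4T1, may share its reads. Atp6v1b2 and Atp6v1c1 were called in neither line, with log2 changes of -0.12 and -0.13 in EMT6 and of -0.03 and -0.11 in 4T1. Atp6v1c1 was called in 4T1 under 4 of 13 alternatives, and each of the pair in EMT6 under 1.

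At the start of autophagy, Ulk1 rose and Becn1 fell in both lines. Ulk1 had 6.07, 6.26 and 5.85 FPKM in EMT6 KO libraries, against 5.12, 3.86 and 4.49 FPKM in EMT6 controls. In 4T1 it had 11.96, 12.02 and 12.7 FPKM in KO libraries, against 8.38, 9.05 and 8.19 FPKM in controls. All KO libraries exceeded all controls of their line, with log2 changes of 0.44 ± 0.09 in EMT6 (edgeR adjusted p = 0.000519) and 0.44 ± 0.06 in 4T1 (edgeR adjusted p = 5.51e-07). Becn1 had 11.2, 11.2 and 10.7 FPKM in EMT6 KO libraries, against 13.98, 14.2 and 15.5 FPKM in EMT6 controls. Its 4T1 levels were 11.1, 11.2 and 11.8 FPKM in KO libraries, against 14.1, 14.1 and 14.5 FPKM in controls. The groups lie apart, and Becn1 fell by 0.40 ± 0.06 in EMT6 (edgeR adjusted p = 3.68e-05) and by 0.41 ± 0.05 in 4T1 (edgeR adjusted p = 2.01e-07). The difference between the lines was 0.01 ± 0.11 for Ulk1 (edgeR adjusted p = 0.948) and 0.01 ± 0.08 for Becn1 (edgeR adjusted p = 0.914). Uvrag, a partner of Becn1, stood at 0.15 ± 0.07 in EMT6 (edgeR adjusted p = 0.0758) and rose by 0.46 ± 0.06 in 4T1 (edgeR adjusted p = 2.42e-07). Wipi1, which reads the lipid that the complex makes, stood at -0.14 ± 0.06 in EMT6 (edgeR adjusted p = 0.0561) and rose by 0.23 ± 0.05 in 4T1 (edgeR adjusted p = 0.000799). Under 3 of 13 alternatives each, Uvrag was called higher and Wipi1 lower in EMT6.

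In the conjugation machinery, Atg5, part of the complex that places Atg8 proteins on the membrane, had 22.4, 22.9 and 21.9 FPKM in EMT6 KO libraries, against 15.6, 17.3 and 18.1 FPKM in EMT6 controls. In 4T1 it had 10.2, 11.04 and 11.1 FPKM in KO libraries, against 13.1, 13.9 and 13.7 FPKM in controls. KO libraries lay above all controls in EMT6 and below all controls in 4T1. Atg5 rose by 0.40 ± 0.07 in EMT6 (edgeR adjusted p = 0.000213) and fell by 0.41 ± 0.08 in 4T1 (edgeR adjusted p = 6.08e-05), a difference of 0.82 ± 0.10 (edgeR adjusted p = 1.77e-07). Atg7, the activating enzyme of the pathway, stood at -0.08 ± 0.07 in EMT6 (edgeR adjusted p = 0.372) and was called at -0.22 ± 0.09 in 4T1 (edgeR adjusted p = 0.0295). That call was lost without replicate 2 or 3 of either 4T1 group (edgeR adjusted p 0.0639 to 0.0994), with total-count scaling and with DESeq2 (adjusted p 0.0852 to 0.172 for the pair).

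Of the 5 Atg8-family genes, 1 rose and 2 fell in EMT6, and 4 rose in 4T1. Map1lc3a, which encodes LC3A, had 14.1, 13.4 and 13.9 FPKM in EMT6 KO libraries, against 4.26, 4.77 and 6.57 FPKM in EMT6 controls. In 4T1 it had 7.85, 10.5 and 10.8 FPKM in KO libraries, against 5.09, 3.34 and 5.25 FPKM in controls. KO libraries were above controls in both lines. Map1lc3a had the largest increase of the 42 genes in each line, 1.39 ± 0.14 in EMT6 (log2, edgeR adjusted p = 4.02e-07) and 1.01 ± 0.16 in 4T1 (edgeR adjusted p = 7.39e-06). Gabarapl1 had 29.1, 30.8 and 27.6 FPKM in EMT6 KO libraries, against 33.3, 35.02 and 43.2 FPKM in EMT6 controls. Its 4T1 levels were 28.1, 28.1 and 31.7 FPKM in KO libraries, against 19.9, 17.8 and 18.7 FPKM in controls. The groups are apart in both lines, low in EMT6 KO and high in 4T1 KO. Gabarapl1 fell by 0.35 ± 0.09 in EMT6 (edgeR adjusted p = 0.00378) and rose by 0.56 ± 0.06 in 4T1 (edgeR adjusted p = 6.26e-08), a difference of -0.90 ± 0.11 (edgeR adjusted p = 2.77e-07).

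Gabarapl2 followed the same pattern, with 15.5, 16.2 and 15.6 FPKM in EMT6 KO libraries against 18.4, 19.6 and 21.0 FPKM in EMT6 controls, and 18.0, 19.7 and 19.6 FPKM in 4T1 KO libraries against 15.3, 14.3 and 15.4 FPKM in 4T1 controls. The groups do not overlap. It fell by 0.32 ± 0.07 in EMT6 (edgeR adjusted p = 0.00155) and rose by 0.27 ± 0.06 in 4T1 (edgeR adjusted p = 0.00105). Map1lc3b, which encodes LC3B, stood at -0.04 ± 0.07 in EMT6 (edgeR adjusted p = 0.668) and rose by 0.37 ± 0.06 in 4T1 (edgeR adjusted p = 1.33e-05). Its span meets Zcchc14 on the other strand, with means of 1275 counts for Zcchc14 beside 1795 for Map1lc3b in EMT6, and 2723 beside 1601 in 4T1. Gabarap, the most abundant of the family in all 4 groups, was not called in EMT6 (-0.03 ± 0.06, edgeR adjusted p = 0.633) or in 4T1 (-0.07 ± 0.05, edgeR adjusted p = 0.231).

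Sqstm1, an autophagy receptor that is itself degraded with its cargo, was not called in either line. It had 114.8, 118.6 and 106.8 FPKM in EMT6 KO libraries, against 133.8, 129.4 and 192.6 FPKM in EMT6 controls, and 115.3, 118.1 and 134.4 FPKM in 4T1 KO libraries, against 113.0, 102.6 and 111.9 FPKM in 4T1 controls. EMT6 control replicate 3 stood far above the others. The log2 change was -0.42 ± 0.17 in EMT6 (edgeR adjusted p = 0.0812) and 0.09 ± 0.05 in 4T1 (edgeR adjusted p = 0.131). Without EMT6 control replicate 3 the EMT6 change was -0.22 ± 0.06 and called (edgeR adjusted p = 0.00192), without EMT6 control replicate 2 it was -0.52 (edgeR adjusted p = 0.0463), and with limma-voom on all libraries it was -0.40 (adjusted p = 0.00765). In 4T1, Sqstm1 was called with total-count scaling alone. Its difference between the lines was -0.50 ± 0.20 (edgeR adjusted p = 0.0607), called under 7 of 19 alternatives.

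The change in one line was set against that in the other as the interaction of line and knockout, fitted over all 12 libraries. For 24 of the 42 genes this difference was called (57.1%, beside 53.4% of 14301 genes), with the EMT6 change above the 4T1 change for 8 (19.0%, beside 26.8% of all) and below it for 16 (38.1%, beside 26.6%). All 10 genes that moved in opposite directions were among the 24, which opposite calls from these same libraries make nearly certain. The lowest p-values belonged to Cd68, Man2b1 (a difference of -0.91 ± 0.08, edgeR adjusted p = 2.4e-10), Atp6v1h, Tpp1 (-1.01 ± 0.13, edgeR adjusted p = 1.1e-07), Atg5 and Gabarapl1. By role, the change in EMT6 was called below that in 4T1 for 7 of 13 hydrolase genes and above it for 1 (Ppt1), and below it for 3 of 5 Atg8-family genes. For the 10 proton pump genes it was called above for 4 and below for 1 (Atp6v0a1). Of the 10 genes that rose in both lines, the difference was called for Lipa alone, at -0.46 ± 0.10 (edgeR adjusted p = 0.000257). For the other 9 it ran from -0.30 ± 0.16 (Neu1) to 0.39 ± 0.23 (Map1lc3a).

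**Figure D3:**
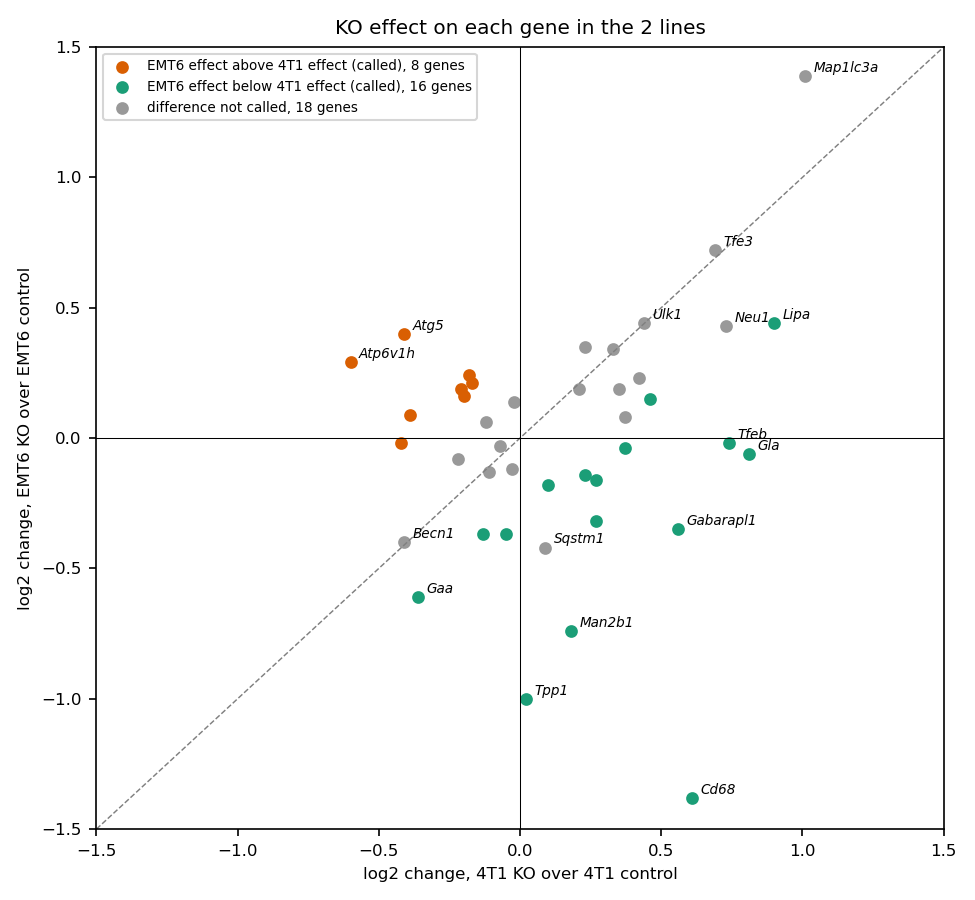
Log2 change of each of the 42 genes in 4T1 (horizontal) against that in EMT6 (vertical), KO over control, with colour for the called difference between the lines. The dashed line marks equal change. Tfe3, Ulk1 and Becn1 lie close to it, Atg5 and Atp6v1h lie above it, and Cd68 lies farthest below it.

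Levels were also compared between the control cells, EMT6 over 4T1. These control libraries are the same ones used in the KO comparisons. Of the 42 genes, 27 were called higher in EMT6 controls and 11 lower (90.5% called, beside 74.7% of 14301 genes, of which 37.5% were higher and 37.2% lower), with a median log2 difference of 0.35. FPKM did not overlap for 36 of the 42, beside 74.1% of all tested genes. Lipa averaged 13.1 ± 0.596 FPKM in EMT6 controls and 2.24 ± 0.155 FPKM in 4T1 controls (SD, n = 3 each), a log2 difference of 2.57 ± 0.07 (SE, edgeR adjusted p = 2.93e-23). Tpp1 went the other way, with 2.26 ± 0.15 FPKM in EMT6 controls and 10.9 ± 0.481 FPKM in 4T1 controls, a difference of -2.25 ± 0.08 (edgeR adjusted p = 2.12e-20). Gla averaged 8.16 ± 0.404 FPKM in EMT6 controls and 2.82 ± 0.34 FPKM in 4T1 controls, a difference of 1.56 ± 0.10 (edgeR adjusted p = 4.41e-14). Psap averaged 364.8 ± 1.99 FPKM in EMT6 controls and 147.0 ± 2.65 FPKM in 4T1 controls, a difference of 1.34 ± 0.05 (edgeR adjusted p = 4.73e-20). For these 4 genes and for both transcription factors the groups do not overlap. Tfe3 was higher in EMT6 controls by 0.98 ± 0.06 (edgeR adjusted p = 3.84e-15) and Tfeb by 0.82 ± 0.13 (edgeR adjusted p = 1.82e-06). On the FPKM scale, which allows for gene length, Psap ranked highest in both EMT6 groups, at 400.7 ± 9.55 FPKM in KO and 364.8 ± 1.99 FPKM in control. Lamp1 ranked highest in both 4T1 groups, at 208.6 ± 5.83 FPKM in KO and 227.1 ± 5.8 FPKM in control. Sqstm1 ranked 3rd in all 4 groups, but in EMT6 controls its 151.9 ± 35.3 FPKM did not differ beyond its spread from Lamp1 at 156.7 ± 8.06 FPKM.

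**Figure D4:**
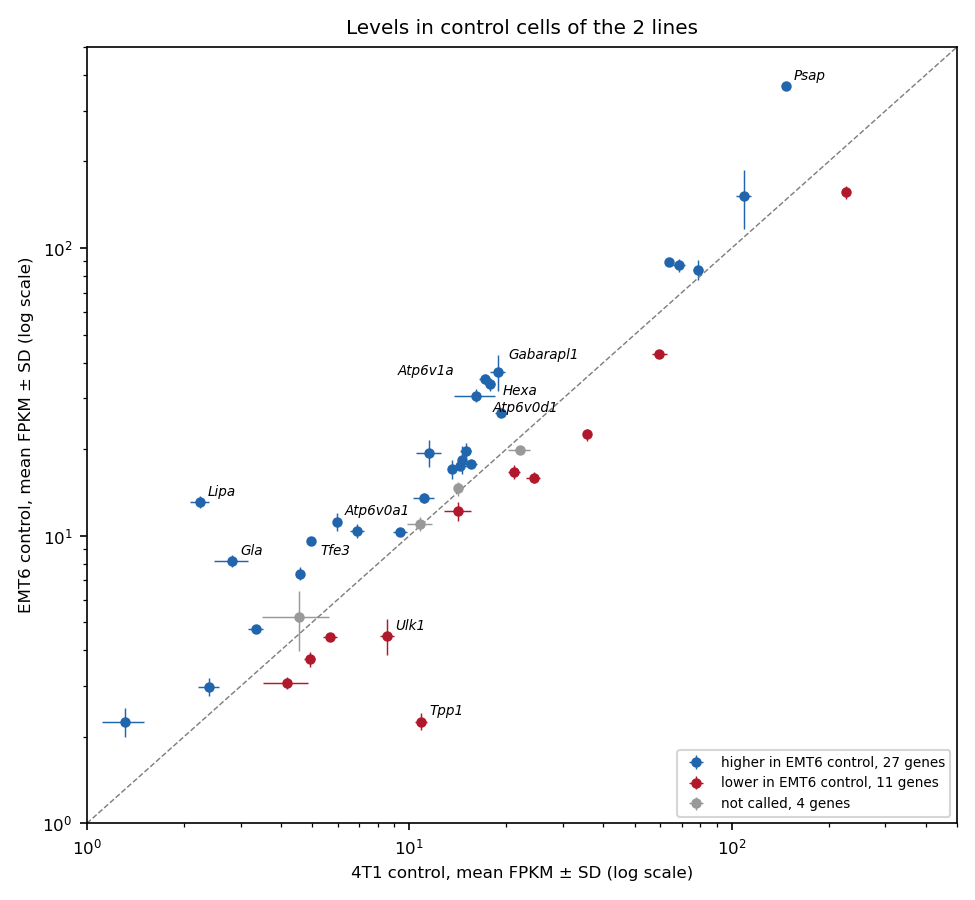
Mean FPKM ± SD (3 libraries) of each gene in 4T1 control cells (horizontal, log scale) and EMT6 control cells (vertical, log scale), coloured by the call between the control groups. The dashed line marks equal levels. Lipa and Gla lie far above it and Tpp1 far below it, with 27 genes called higher and 11 lower in EMT6.

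Beyond the 42 genes, 6 further lists of lysosome and autophagy genes held 121 symbols, of which 113 were tested in each line. In EMT6, 39 of the 113 were called higher in KO and 31 lower, and in 4T1 43 were called higher and 28 lower. These are 34.5% higher and 27.4% lower in EMT6, beside 27.9% and 28.2% of all tested genes, and 38.1% higher and 24.8% lower in 4T1, beside 28.0% and 29.0%. With DESeq2 the 43 became 28. Of the other proton pump genes, 7 of 8 rose in EMT6, with a median log2 change of 0.57, and 5 of 9 rose and 1 fell in 4T1, with a median of 0.17. The 7 include Rnasek, at 1.14 to 1.63 FPKM in EMT6 KO libraries against 0.47 to 0.87 FPKM in EMT6 controls (SE 0.39). At such low levels Rnasek may have passed the filter through the KO libraries. Atp6ap2, an accessory protein of the pump, had 34.7, 33.4 and 33.1 FPKM in EMT6 KO libraries, against 11.5, 12.8 and 12.8 FPKM in EMT6 controls. KO was well above control, by 1.45 ± 0.07 (edgeR adjusted p = 4.44e-11). In 4T1, Atp6ap2 rose by 0.54 ± 0.06 (edgeR adjusted p = 3.08e-08). Atp6v0a2, a V0 subunit like Atp6v0a1, rose by 0.60 ± 0.07 in EMT6 (edgeR adjusted p = 1.47e-06) and fell by 0.59 ± 0.06 in 4T1 (edgeR adjusted p = 2.32e-08). Atp6v0b, another ring subunit, rose by 0.54 ± 0.07 in EMT6 and by 0.28 ± 0.06 in 4T1. Atp6ap1, the other accessory protein, rose by 0.85 ± 0.05 in EMT6 (edgeR adjusted p = 1.86e-09). It was called at 0.12 ± 0.05 in 4T1 (edgeR adjusted p = 0.0343), which ended in 5 of the 6 fits that left out a 4T1 library, all but the one without control replicate 2 (edgeR adjusted p 0.0528 to 0.127), with no filter on low counts (edgeR adjusted p = 0.201) and with DESeq2 (adjusted p = 0.121).

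Of the genes that carry new hydrolases to the lysosome, 4 of 11 rose and 2 fell in EMT6, and 2 of 10 rose and 6 fell in 4T1. Beside them, 27.9% of all tested genes were called higher and 28.2% lower in EMT6, and 28.0% and 29.0% in 4T1. Igf2r, the large mannose 6-phosphate receptor, rose by 0.71 ± 0.07 in EMT6 (edgeR adjusted p = 3.32e-07) and fell by 0.47 ± 0.05 in 4T1 (edgeR adjusted p = 1.4e-07), a difference of 1.19 ± 0.09 (edgeR adjusted p = 9.19e-12). Nagpa, which uncovers the mannose 6-phosphate tag, rose by 0.87 ± 0.16 in EMT6 (edgeR adjusted p = 0.000189) and fell by 1.10 ± 0.15 in 4T1 (edgeR adjusted p = 8.95e-07). Gnptab, which starts that tag, rose by 0.47 ± 0.08 in EMT6 (edgeR adjusted p = 7.74e-05) and fell by 0.18 ± 0.05 in 4T1 (edgeR adjusted p = 0.00341), a 4T1 call lost with total-count scaling (edgeR adjusted p = 0.0716). M6pr, the small receptor, stood at -0.02 ± 0.05 in EMT6 (edgeR adjusted p = 0.715) and fell by 0.51 ± 0.05 in 4T1 (edgeR adjusted p = 2.17e-09). Gga2, an adaptor for both receptors, rose by 0.54 ± 0.09 in EMT6 (edgeR adjusted p = 9.76e-05) and stood at -0.07 ± 0.11 in 4T1 (edgeR adjusted p = 0.622).

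Among 23 other hydrolases and cofactors, 8 rose and 5 fell in EMT6, and 9 rose and 8 fell in 4T1. Shares of all tested genes, for this list and the next, were 27.9% higher and 28.2% lower in EMT6, and 28.0% and 29.0% in 4T1. Gm2a, the GM2 activator, fell by 0.98 ± 0.06 in EMT6 (edgeR adjusted p = 2.2e-09) and rose by 0.70 ± 0.05 in 4T1 (edgeR adjusted p = 5.93e-11), a difference of -1.67 ± 0.08 (edgeR adjusted p = 8.88e-16). Gusb, the beta-glucuronidase, rose by 0.52 ± 0.07 in EMT6 and fell by 0.67 ± 0.04 in 4T1. Galc, the galactosylceramidase, rose by 0.70 ± 0.07 in EMT6 and fell by 0.41 ± 0.05 in 4T1. Ids, the iduronate sulfatase, rose in both lines, by 0.93 ± 0.06 in EMT6 and 0.42 ± 0.07 in 4T1. Among 18 other membrane proteins, 6 rose and 5 fell in EMT6, and 8 rose and 4 fell in 4T1. Gpnmb, a glycoprotein of lysosomes and melanosomes, had 90, 93 and 69 counts in EMT6 KO libraries, against 1, 6 and 1 counts in EMT6 controls, so that in EMT6 it passed the filter through the KO libraries alone and is given as counts. It is still counted among the 6 membrane protein genes that rose and the 39 further genes called higher in EMT6. It had 96, 68 and 54 counts in 4T1 KO libraries, against 79, 93 and 76 counts in 4T1 controls, which overlap (edgeR adjusted p = 0.0552). Laptm4a rose by 0.46 ± 0.06 in EMT6 and fell by 0.24 ± 0.04 in 4T1, and Ostm1, a partner of a lysosomal chloride transporter, rose by 0.70 ± 0.08 in EMT6 and fell by 0.44 ± 0.09 in 4T1. In 4T1, the transporter Abca2 rose by 0.52 ± 0.05 and the channel Tpcn1 fell by 0.51 ± 0.06. In EMT6 these 2 were not called, at -0.16 ± 0.07 for Abca2, which 6 of 13 alternatives called, and 0.11 ± 0.07 for Tpcn1.

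Among 14 tested genes of nutrient sensing on the lysosome, 6 rose and 4 fell in EMT6, and 5 rose and 3 fell in 4T1. Over all tested genes, 27.9% were called higher and 28.2% lower in EMT6, and 28.0% and 29.0% in 4T1. Mitf, a transcription factor of the same family as Tfeb and Tfe3, had 4.89, 4.8 and 4.63 FPKM in EMT6 KO libraries, against 15.2, 12.7 and 15.7 FPKM in EMT6 controls. It was low in every EMT6 KO library, with a log2 change of -1.60 ± 0.08 (edgeR adjusted p = 7.23e-11). In 4T1, Mitf stood at -0.16 ± 0.10 (edgeR adjusted p = 0.189), and the changes differed by -1.43 ± 0.13 (edgeR adjusted p = 2.46e-10). Lamtor1, which anchors the Ragulator complex, rose by 0.86 ± 0.09 in EMT6 and stood at -0.12 ± 0.06 in 4T1 (edgeR adjusted p = 0.0892). The GTPase Rraga rose by 0.61 ± 0.07 in EMT6 and was called at -0.15 ± 0.05 in 4T1, which was lost without KO replicate 3 (edgeR adjusted p = 0.0598), without control replicate 2 (edgeR adjusted p = 0.051) and with total-count scaling (edgeR adjusted p = 0.26). Mtor fell by 0.47 ± 0.06 in EMT6 and rose by 0.25 ± 0.05 in 4T1, while its partner Rptor fell in both, by 0.25 ± 0.06 in EMT6 and 0.29 ± 0.06 in 4T1. Fnip1, a folliculin partner, stood at 0.04 ± 0.07 in EMT6 and rose by 0.58 ± 0.05 in 4T1.

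Among 39 other autophagy core genes, 8 rose and 15 fell in EMT6, and 14 rose and 6 fell in 4T1. All tested genes were called higher for 27.9% and lower for 28.2% in EMT6, and for 28.0% and 29.0% in 4T1. Trp53inp2, which binds Atg8 proteins, rose in both lines, by 1.29 ± 0.09 in EMT6 (edgeR adjusted p = 4.09e-09) and 0.55 ± 0.07 in 4T1 (edgeR adjusted p = 4.2e-07). Nbr1, a receptor related in function to Sqstm1, fell by 0.48 ± 0.06 in EMT6 and stood at 0.06 ± 0.04 in 4T1. Epg5, a tether of autophagosomes to lysosomes, fell by 0.88 ± 0.10 in EMT6 and stood at -0.10 ± 0.07 in 4T1. Calcoco1, an autophagy receptor, rose by 0.82 ± 0.08 in 4T1. In EMT6 it was called at -0.28 ± 0.09 (edgeR adjusted p = 0.011), which was lost without KO replicate 1 (edgeR adjusted p = 0.0614). Atg2a, a lipid transfer protein of the growing membrane, stood at 0.13 ± 0.08 in EMT6 and rose by 0.55 ± 0.07 in 4T1.

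**Figure D5:**
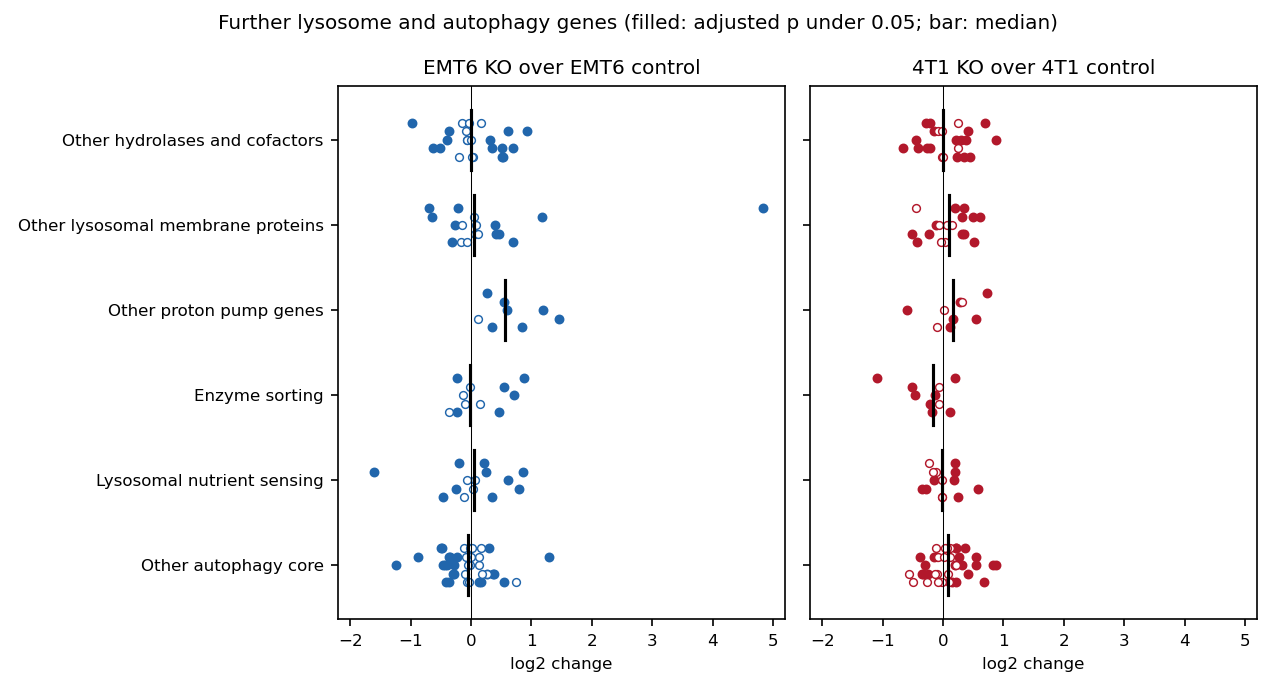
Log2 change, KO over control, of the tested genes of 6 further lists in EMT6 (left) and 4T1 (right). Each point is a gene, filled where called at an adjusted p under 0.05, and bars mark list medians. The proton pump list lies to the right of 0 in EMT6 with a median of 0.57, and the single far point in EMT6 is Gpnmb, whose controls had 1 to 6 counts.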

How the data were processed

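Per the labels' protocols, libraries were made from total RNA after capture of mRNA on beads. The submitters' processing notes name cutadapt 1.9.1, HISAT2 2.2.1, HTSeq 0.6.1 and DESeq2 as tools, and GRCm38 as the build. Neither the strand setting nor the treatment of multiply matching reads is given there. The deposited tables hold raw counts per gene and FPKM, which the authors scaled by exonic gene size and total counts. FPKM recomputed from the deposited counts agree within 0.005. Coordinates in the tables are not those of a GRCm38 annotation and are not printed.

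Counts were tested in R 4.3.3 with edgeR 4.0.16 (filterByExpr, TMM scaling, robust quasi-likelihood test, Benjamini-Hochberg adjustment over all tested genes), in each line separately for KO against control. The 2 tables were joined by gene identifier, with all 12 libraries in 1 fit, for the interaction and for the control groups. Tests are 2-sided and SE is that of the fit. The main KO comparison within each line was tested on simulated counts with the same spread for all genes. The interaction, the comparison of controls and the alternatives were not simulated. The biological coefficient of variation was 6.73% in EMT6 and 4.82% in 4T1. With 3 libraries on each side, the smallest p of an exact permutation test is 0.1. Alternatives were DESeq2 1.42.0, limma-voom (limma 3.58.1), DESeq2 size factors, total-count scaling, no filter, at least 1 CPM in 3 libraries, the replicate number as a block, and each library left out.

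Per-library values are printed for genes called in both lines, the 8 largest called changes per line, the 6 lowest interaction p-values, the 4 largest called control differences, and Tfeb and Tfe3. Other members are given by their fold changes. Of each further list, up to 3 called genes per line with the lowest adjusted p are named, and 1 gene that this names is not reported here. The 42 genes, the further lists and these rules were chosen with earlier results of these data known. Sqstm1's per-library values, pseudogene copies and overlapping neighbours fall outside these rules and were chosen after their values were seen. No protein sequence was used here.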

Additional observations from a re-analysis of the deposited data

Results flagged for a closer look

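A difference between the lines in the change from control to KO was called for 24 of the 42 genes (edgeR interaction, EMT6 change minus 4T1 change, log2, over 14301 tested genes, of which 53.4% were called). Below 0, Cd68 stood at -1.99, Tpp1 at -1.01, Man2b1 at -0.91, Gabarapl1 at -0.90, Gla at -0.86, Tfeb at -0.76 and Gabarapl2 at -0.58. Smaller differences below 0 were those of Lipa at -0.46, Mcoln1 at -0.42, Map1lc3b at -0.40, Wipi1 at -0.36, Grn at -0.31, Uvrag at -0.31, Atp6v0a1 at -0.28, Gaa at -0.24 and Glb1 at -0.24. Above 0, Atp6v1h stood at 0.90, Atg5 at 0.82, Ppt1 at 0.50, Atp6v0e at 0.42, Atp6v1e1 at 0.41, Cd63 at 0.40, Atp6v1d at 0.38 and Lamp1 at 0.37. The calls of Gaa, Glb1 and Atp6v0a1 were lost under some alternatives. Gaa lost its call without 4T1 KO replicate 2 or 3 or 4T1 control replicate 1 (edgeR adjusted p 0.0537 to 0.0607), and Glb1 without 4T1 KO replicate 1 (edgeR adjusted p = 0.0508). With no filter on low counts, the edgeR adjusted p was 0.176 for Gaa, 0.146 for Glb1 and 0.102 for Atp6v0a1.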

How the results depend on the processing

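The count of the 42 genes called lower in 4T1 KO cells was 7 with total-count scaling, against 12 with TMM scaling. The other counts stayed within 1.5 times of their main value under every alternative run. With each library left out in turn, the genes called in EMT6 ran from 12 to 17 higher and from 9 to 12 lower, in 4T1 from 20 to 21 higher and from 9 to 13 lower, for the interaction from 8 to 10 higher and from 15 to 18 lower, and for EMT6 over 4T1 controls from 25 to 27 higher and from 9 to 12 lower. No called change reversed its direction. Calls lost under at least 1 alternative numbered 6 of 27 in EMT6, 7 of 33 in 4T1, 3 of 24 for the interaction and 5 of 38 between controls. Genes not called that were called under at least 1 alternative numbered 5 of 15 in EMT6, 3 of 9 in 4T1, 7 of 18 for the interaction and 1 of 4 between controls. The gene that gained a call between controls was Atp6v0e, under 6 of 19 alternatives. The 5 that lost a call between controls were Atp6v0c, Atp6v1d, Cd63, Man2b1 and Neu1. Of these, Cd63 was lost in 15 of 19 alternatives, 9 of them leaving out a library (edgeR adjusted p 0.0508 to 0.227). Atp6v1d was lost without 4T1 control replicate 1 or EMT6 control replicate 3, Man2b1 without control replicate 2 of either line, Neu1 without 4T1 control replicate 1 and Atp6v0c without 4T1 control replicate 3 (edgeR adjusted p 0.0506 to 0.148). The causes were not tested. Alternatives for the further lists were added after seeing the data. There, 1 count left the range, 28 genes called higher in 4T1 with DESeq2 against 43.

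Deviations from the group mean were correlated across genes between KO and control libraries. Same-numbered pairs gave -0.13, -0.00713 and -0.111 in EMT6, and -0.0233, -0.0102 and 0.00915 in 4T1. Pairs with different numbers ran from -0.0225 to 0.127 in EMT6 and from -0.0397 to 0.0498 in 4T1. Deviations sum to 0 within a group, so these values depend on each other. They cannot show whether same-numbered libraries shared handling. With replicate block, 16 genes were called higher and 10 lower in EMT6, 21 higher and 13 lower in 4T1, 8 higher and 16 lower for the interaction, and 27 higher and 11 lower between controls. Under it Psap was not called in EMT6 (edgeR adjusted p = 0.081) and Atp6v1c1 was called in 4T1. Calls over all genes were 6830 against 7224 in EMT6 and 7676 against 7589 in 4T1. With 3 libraries a group, small changes may not be called, and a missing call does not show that levels were equal. The lowest of the 42 genes averaged 137.5 counts in 4T1 and 153.8 in EMT6.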
